A study of Mus musculus with 4 samples.

Results

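The genes described here are 9 that govern when T cells leave lymph nodes and how they hold a quiescent state, namely the sphingosine-1-phosphate receptor genes S1pr1 and S1pr4, the retention gene Cd69, the Krüppel-like factor genes Klf2, Klf3 and Klf6, and the forkhead genes Foxo1, Foxo3 and Foxp1. The rule for choosing them is a list of names and uses no measured value, although earlier results of these data were known when it was written, and they were found among 18539 genes through the RefSeq accession of each probe. The array held 14 probes for them, of 41174 sample probes in all. Gene expression was measured on single-dye Agilent mouse arrays in Th2 cells, the helper T cells that make interleukin (IL)-4, IL-5 and IL-13, from female C57BL/6J mice.

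The labels name splenic CD4 T cells isolated with a magnetic sorter as the starting cells, whereas the methods of the study start from naïve CD4 T cells. All the cells received coated anti-TCR-β (3 µg/ml) and anti-CD28 (1 µg/ml) antibodies for 2 days, with IL-4 at 10 ng/ml and IL-2 at 2.5 ng/ml, and then both cytokines without the antibodies for 3 days. SH-2251, a small compound made to block the production of IL-5, was either present throughout or left out, which gives the control. The labels give 1 µM of SH-2251 for the first culture and 1 mM for the second, while the methods give a lower default concentration, so the dose behind these arrays is not settled. Cells of each kind were then left resting or restimulated with coated anti-TCR-β antibody for 4 h, and the labels do not say whether the resting and the restimulated cells came from 1 culture. Each of the 4 conditions was measured on 1 array, so no SD between cultures, test or p-value is given, and every difference describes these arrays only.

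S1PR1 senses the sphingosine-1-phosphate that is abundant in blood and lymph and low inside lymphoid tissue, and a T cell follows that gradient out of the lymph node. CD69, which appears after stimulation of the T cell receptor, binds S1PR1 and removes it from the cell surface, which keeps the cell in the node. KLF2 drives transcription of S1pr1, and FOXO1 drives transcription of Klf2 and of homing and survival genes such as Ccr7 and Il7r. Signalling through PI3K and AKT holds FOXO proteins out of the nucleus, and FOXP1 maintains the quiescence of naïve T cells. The arrays measured RNA only, so surface receptor and nuclear protein were not measured.

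Values are log2 signals from which the 75th percentile over the probes of that array was subtracted, so that 0 marks the percentile. The error beside each value is a technical SD from the scanner software, which covers error within an array and not variation between cultures. A gene was counted as higher or lower at a difference of at least 2-fold, and in a bulk culture fewer expressing cells and less RNA per cell cannot be told apart. On each array 56.0% to 56.7% of probes lay well above background, no sample spot was saturated, and the 4 arrays shared 1 slide and 1 scan. Of the 8 T and Th2 cell markers, 7 had a probe, and all 7 (Cd3e, Cd3d, Cd4, Gata3, Il4, Il13 and Il5) were well above background on the 4 arrays. Of these, Il5 was 14.5-fold lower with SH-2251 at rest and 8.05-fold lower after restimulation, and Il13 2.5-fold and 1.48-fold lower.

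Upstream sequence was available in a RefSeq table of mouse promoters (GRCm38.p6) for 7 of the 9 genes, not including S1pr1 and Cd69. The 250 bases before the annotated start are shown for S1pr4 and Foxo1, whose signals moved in opposite directions on restimulation, and for Klf2, whose probes disagreed. Capitals mark the forkhead core TGTTT or AAACA, the CACCC box CACCC or GGGTG, and the GC box GGGCGG or CCGCCC, searched on both strands, and matches to different motifs may overlap.
S1pr4 (chr10:81500138-81500387, minus strand): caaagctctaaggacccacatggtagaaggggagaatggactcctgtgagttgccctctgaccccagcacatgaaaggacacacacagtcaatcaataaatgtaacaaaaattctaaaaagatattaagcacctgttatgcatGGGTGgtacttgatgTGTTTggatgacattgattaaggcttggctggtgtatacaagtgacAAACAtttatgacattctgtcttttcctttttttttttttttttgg
Klf2 (chr8:72318812-72319061, plus strand): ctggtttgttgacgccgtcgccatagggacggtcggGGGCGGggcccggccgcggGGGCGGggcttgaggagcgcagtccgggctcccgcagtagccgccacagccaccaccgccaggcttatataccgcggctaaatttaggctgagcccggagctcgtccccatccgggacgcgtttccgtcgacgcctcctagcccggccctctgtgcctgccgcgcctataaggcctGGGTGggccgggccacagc
Foxo1 (chr3:52268087-52268336, plus strand): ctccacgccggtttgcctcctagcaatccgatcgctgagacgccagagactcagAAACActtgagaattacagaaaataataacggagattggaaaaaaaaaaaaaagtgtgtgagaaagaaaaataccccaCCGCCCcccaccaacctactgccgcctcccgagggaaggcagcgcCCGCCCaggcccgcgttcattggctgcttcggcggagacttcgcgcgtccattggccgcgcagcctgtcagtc
The S1pr4 window held 2 forkhead cores and 1 CACCC box, the Klf2 window 1 CACCC box and 2 GC boxes, and the Foxo1 window 1 forkhead core and 2 GC boxes. Among all 32851 starts in the table, 46.4% held a forkhead core, 52% a CACCC box and 32.7% a GC box in the same span. The Klf6 and Foxo3 windows held GC boxes alone (1 and 5), and the Klf3 window held all 3 motifs, with 1 forkhead core, 5 CACCC boxes and 6 GC boxes. Foxp1 has 3 starts in the table, whose windows held 3, 3 and 1 forkhead cores. A match gives the letters only and is not evidence of a bound site.

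S1pr1, the receptor that carries T cells out of lymph nodes, had the largest decrease with SH-2251, in either state, of the 8 genes that could be compared. Its only probe (NM_007901) was well above background on all 4 arrays. The log2 signal was 2.01 in the resting control cells, 1.38 in the resting SH-2251-treated cells, 0.90 in the restimulated control cells and -0.88 in the restimulated SH-2251-treated cells (technical SD 0.144 to 0.146). Before scaling these were intensities of 2254, 1596, 932 and 316. The restimulated SH-2251-treated cells were thus the lowest of the 4 conditions, and each neighbour in the order of levels was separated by more than the technical SD.
In the resting cells the S1pr1 signal was 1.55-fold lower with SH-2251 (log2 difference -0.63, technical SD 0.204), below the 2-fold limit. In the restimulated cells it was 3.44-fold lower (-1.78, technical SD 0.205), which left 29% of the control signal. Of the 12622 genes compared in restimulated cells, 0.832% had a difference as low or lower. Restimulation itself left the signal 2.15-fold lower without SH-2251 (-1.11) and 4.79-fold lower with it (-2.26), and in the latter pair 0.151% of 12613 genes had a difference as low or lower. The SH-2251 difference in the restimulated cells exceeded that in the resting cells by -1.16 (technical SD 0.289). Among the 11518 genes measured on all 4 arrays, 0.278% had a value as low or lower for this difference of differences. It has no replicate check.

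**Figure D1:**
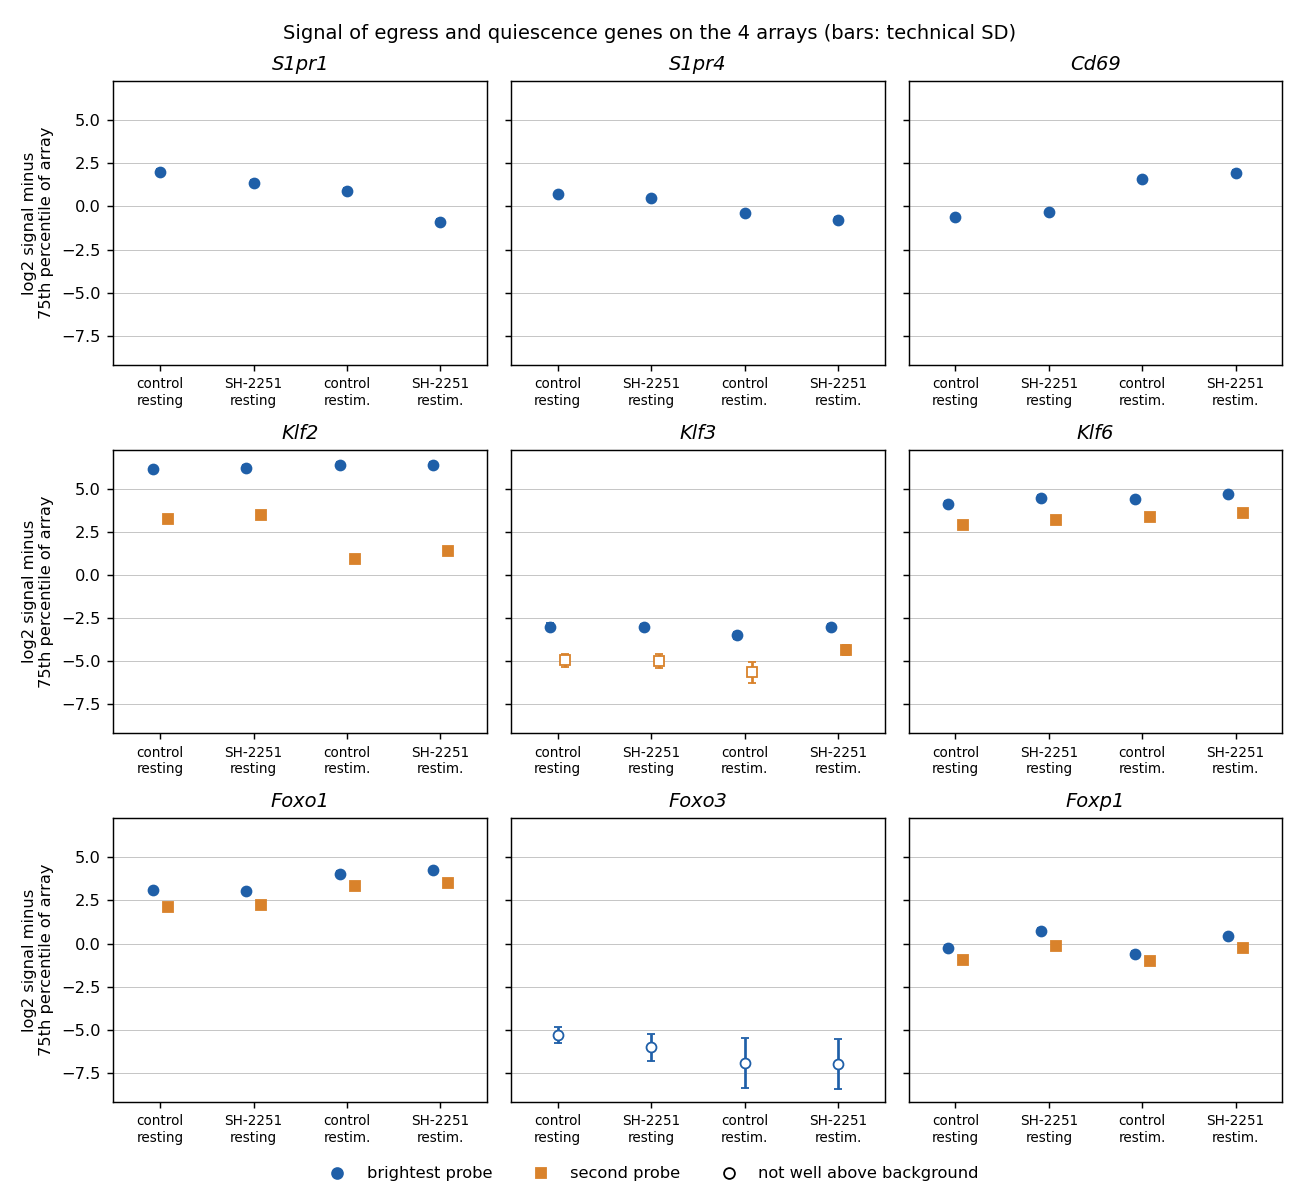
Log2 signal minus the 75th percentile of its array (y axis) for every probe of the 9 genes in the 4 conditions (x axis), with the brightest probe of a gene as circles, a second probe as squares, technical SD as bars and open symbols for signals not well above background. S1pr1 is lowest in the restimulated SH-2251-treated cells at -0.88, the 2 Klf2 probes separate on restimulation, and Foxo3 is open in every condition.

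S1pr4, a receptor for the same lipid that is found mainly on blood cells, was lower after restimulation and differed little with SH-2251. Its probe (NM_010102) gave log2 signals of 0.70 in the resting control, 0.47 in the resting SH-2251-treated, -0.40 in the restimulated control and -0.76 in the restimulated SH-2251-treated cells. Both restimulated arrays thus lay below both resting arrays. After restimulation the signal was 2.16-fold lower without SH-2251 (-1.11, technical SD 0.205) and 2.34-fold lower with it (-1.23, technical SD 0.205). The control value of S1pr4 on restimulation matched that of S1pr1, whereas in the SH-2251-treated cells that of S1pr1 was -2.26. The S1pr4 signal was 1.18-fold lower with SH-2251 in the resting cells (-0.24, technical SD 0.204) and 1.28-fold lower in the restimulated cells (-0.36, technical SD 0.205), both past the technical SD.

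Cd69, whose product opposes S1PR1 at the cell surface, was higher after restimulation with and without SH-2251. Its probe (NM_001033122) gave log2 signals of -0.63 in the resting control, -0.32 in the resting SH-2251-treated, 1.59 in the restimulated control and 1.97 in the restimulated SH-2251-treated cells. The 2 restimulated arrays lay above the 2 resting arrays, and within each state the SH-2251-treated cells were the higher. After restimulation it was 4.68-fold higher without SH-2251 (2.23, technical SD 0.205) and 4.88-fold higher with it (2.29, technical SD 0.205). SH-2251-treated cells exceeded control cells 1.24-fold at rest (0.31) and 1.3-fold after restimulation (0.37). The SH-2251 differences of Cd69 in the 2 states differed by 0.06, less than their technical SD of 0.29. All 10 genes in a list of early T cell activation markers gave a higher value on their brightest probe than at rest in both treatments. At least 2-fold higher were 7 in the control cells and 9 in the SH-2251-treated cells, against 7.20% and 7.09% of all genes. Myc was the smallest at 0.05 in the control cells. The second probe of Il2ra gave -0.21 there. With SH-2251, Egr2 of this list was 2.28-fold lower at rest and Il2 2.89-fold lower after restimulation.

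Klf2, which encodes the factor that drives S1pr1, was measured by 2 probes of the same accession (NM_008452) that gave different answers on restimulation. The brighter probe gave log2 signals of 6.12 in the resting control, 6.21 in the resting SH-2251-treated and 6.38 in both the restimulated control and the restimulated SH-2251-treated cells. No neighbours in that order differed beyond the technical SD. The dimmer probe gave 3.25, 3.45, 0.94 and 1.37 in the same order, so that both restimulated arrays lay well below both resting arrays.
After restimulation the dimmer Klf2 probe was 4.96-fold lower without SH-2251 (-2.31, technical SD 0.204) and 4.22-fold lower with it (-2.08), whereas the brighter probe differed by 0.26 and 0.17. The probes thus differed by 2.57 in the control and 2.25 in the SH-2251-treated cells, with a technical SD of 0.289. Among 4041 genes with at least 2 probes well above background on all arrays, the median spread between probes was 0.20 and 0.19 for these comparisons, and 0.099% and 0.223% of the genes had a spread as large as that of Klf2. Which probe follows the Klf2 transcript was not tested, and the sequence of neither probe was used here.
Both probes differed little with SH-2251. The brighter probe gave 0.09 in the resting cells and -0.00 in the restimulated cells, within the technical SD of 0.204, and the dimmer probe gave 0.20 and 0.43.

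Klf3, which encodes a transcriptional repressor of the same family, was dim throughout. The brighter of its 2 probes (NM_008453) gave log2 signals of -2.99 in the resting control, -3.01 in the resting SH-2251-treated, -3.50 in the restimulated control and -2.99 in the restimulated SH-2251-treated cells. Only the restimulated control array stood apart in the main processing. It was lower than the resting control by 1.43-fold (-0.51, technical SD 0.276) and lower than the restimulated SH-2251-treated cells by 1.43-fold. With normexp, an alternative background correction, it was lower by only 0.11 in each comparison. The second probe was well above background on 1 array alone, that of the restimulated SH-2251-treated cells (-4.35).

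Klf6, an early-response member of the family, was slightly higher with SH-2251 and after restimulation on both of its probes (NM_011803). The brighter probe gave log2 signals of 4.14 in the resting control, 4.47 in the resting SH-2251-treated, 4.39 in the restimulated control and 4.68 in the restimulated SH-2251-treated cells. The other probe gave 2.87, 3.17, 3.34 and 3.62. On each probe the resting control cells were lowest and the restimulated SH-2251-treated cells highest. The SH-2251 differences on the 2 probes were 0.33 and 0.30 in the resting cells and 0.29 and 0.28 in the restimulated cells (technical SD 0.204), from 1.21-fold to 1.26-fold and none near 2-fold. With normexp the resting differences were 0.01 and 0.04, or 0.29 on both probes without spots of uneven background. On restimulation the brighter probe differed by 0.25 in the control and 0.21 in the SH-2251-treated cells. Under quantile normalization these were 0.19 and 0.09, within the technical SD.

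Foxo1, the forkhead factor upstream of Klf2, was higher after restimulation and differed little with SH-2251. The brighter of its 2 probes (NM_019739) gave log2 signals of 3.09 in the resting control, 3.03 in the resting SH-2251-treated, 4.04 in the restimulated control and 4.25 in the restimulated SH-2251-treated cells. The other probe gave 2.11, 2.24, 3.36 and 3.51. Both probes placed the restimulated arrays above the resting arrays. After restimulation the brighter probe was 1.92-fold higher without SH-2251 (0.94, technical SD 0.204) and 2.33-fold higher with it (1.22), and the other probe 2.39-fold (1.25) and 2.41-fold (1.27). The SH-2251 differences lay between -0.06 and 0.22 over both probes and states, the largest being 0.22 on the brighter probe in the restimulated cells. Foxo3, the related FOXO gene (NM_019740), did not reach a signal well above background under any condition, so no fold is given for it.

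Foxp1, a forkhead repressor that keeps naïve T cells quiescent, had the largest increase with SH-2251 when each gene was read on its brightest probe. With the mean of all probes in the restimulated cells Klf3, whose second probe was below background on 3 arrays, gave 0.90 and Foxp1 0.87. The brighter of its 2 probes (NM_053202) gave log2 signals of -0.24 in the resting control, 0.73 in the resting SH-2251-treated, -0.59 in the restimulated control and 0.43 in the restimulated SH-2251-treated cells. The other probe gave -0.97, -0.12, -1.01 and -0.28. On both probes the 2 SH-2251-treated arrays lay above the 2 control arrays. On the brighter probe SH-2251-treated cells exceeded control cells 1.96-fold at rest (0.97, technical SD 0.205) and 2.02-fold after restimulation (1.01, technical SD 0.205), on either side of the 2-fold limit. The other probe was 1.8-fold higher (0.85) and 1.67-fold higher (0.74). Of the genes compared, 2.44% in the resting and 2.6% in the restimulated cells had a difference as high as that of the brighter probe. Restimulation changed the signal by -0.35 in the control and -0.30 in the SH-2251-treated cells on the brighter probe, and by -0.04 and -0.15 on the other.

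**Figure D2:**
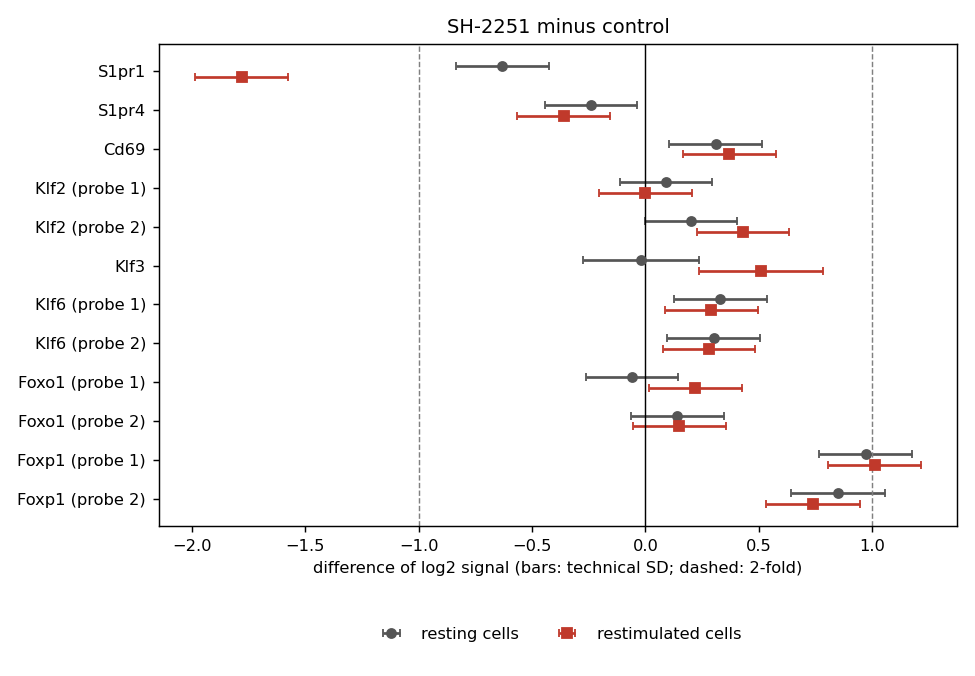
Difference of log2 signal, SH-2251-treated minus control (x axis), for the probes of 8 genes without the dimmer Klf3 probe (y axis) in resting cells (circles) and restimulated cells (squares), with technical SD as bars and dashed lines at 2-fold. S1pr1 in the restimulated cells, at -1.78, stands apart on the left, and both Foxp1 probes lie between 0.74 and 1.01 on the right.

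With each gene represented by its brightest probe, 8 of the 9 genes could be compared in every pair of arrays. At rest none passed 2-fold with SH-2251 in either direction, against a background of 2.90% of 12683 genes lower and 2.22% higher. After restimulation 1 gene (S1pr1) was lower and 1 (Foxp1) higher, where 2.78% of 12622 genes were lower and 2.65% higher. The median difference over the 8 genes was 0.03 in the resting and 0.25 in the restimulated cells, against -0.06 over all genes in either state.
On restimulation of the control cells 2 genes (S1pr1 and S1pr4) were at least 2-fold lower and 1 (Cd69) higher, where 7.34% of 12757 genes were lower and 7.20% higher. In the SH-2251-treated cells the same 2 were lower and 2 (Cd69 and Foxo1) were higher, where 6.98% of 12613 genes were lower and 7.09% higher. The dimmer Klf2 probe would add Klf2 to the lower genes in both treatments, and the second Foxo1 probe would add Foxo1 to the higher genes in the control cells. For the difference of differences, S1pr1 alone passed 2-fold on the lower side, where 0.478% of 11518 genes did, and none of the 8 genes passed it on the higher side, where 0.738% did. Under the alternative settings the S1pr1 value ran from -1.18 to -0.88, and S1pr1 did not pass 2-fold under normexp. Each array entered 2 of these 4 comparisons, so the comparisons share arrays and are given side by side.

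**Figure D3:**
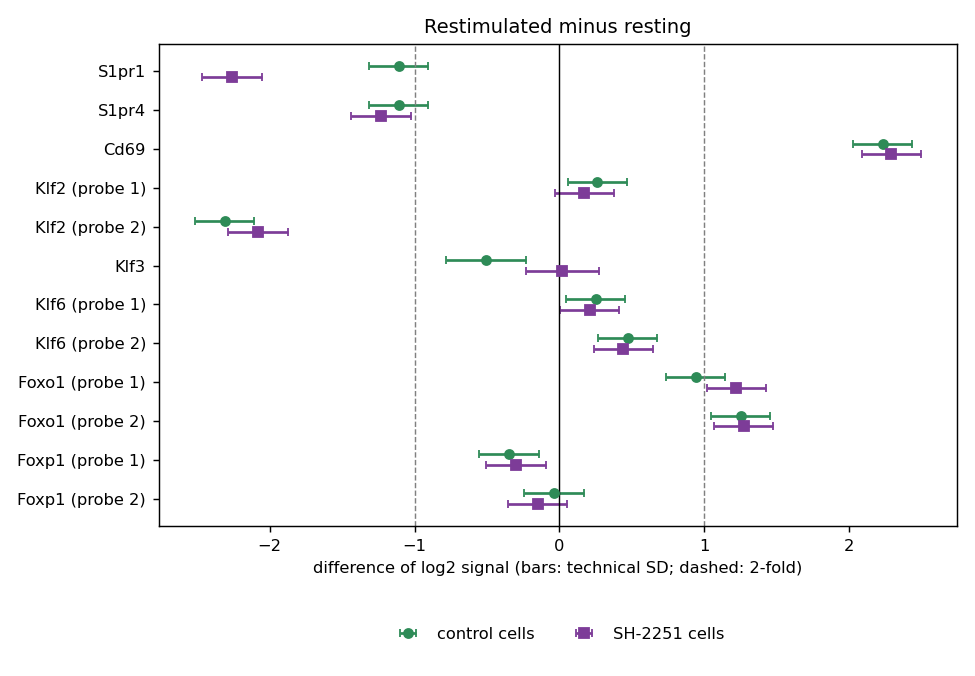
Difference of log2 signal, restimulated minus resting (x axis), for the probes of 8 genes without the dimmer Klf3 probe (y axis) in control cells (circles) and SH-2251-treated cells (squares), with technical SD as bars and dashed lines at 2-fold. The 2 treatments lie close together for most probes, S1pr1 is lower in SH-2251-treated cells (-2.26) than in control cells (-1.11), and the Klf2 probes lie on opposite sides of 0.

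The other genes were taken whole from lists drawn up for the pathway. Where a gene of these lists is named below without a difference of at least 2-fold with SH-2251, it was chosen after its values had been seen. For comparison with the counts below, 2.90% of all genes were 2-fold lower with SH-2251 at rest and 2.22% higher. After restimulation the shares were 2.78% and 2.65%. Of 22 genes that make, break down, export or respond to sphingosine-1-phosphate, 21 had a probe and 20 could be compared in the resting cells. In those cells 2 were at least 2-fold lower with SH-2251 and 1 was higher. The lower ones were S1pr5, another receptor for the lipid, and Sphk1, a kinase that makes the lipid. S1pr5 was at least 2.74-fold lower and well above background in the resting control cells alone. Sphk1 gave -1.07 at rest and -0.12 after restimulation on its brightest probe. A second Sphk1 probe, above background on 3 arrays alone, gave a bound of 0.00 at rest (-0.80 unfiltered), so no decrease could be read from it. The higher one was Plpp3, a phosphatase that degrades lipid phosphates, above background with SH-2251 alone. It was 4.61-fold higher against an undetected control signal (2.21, technical SD 0.382). Grk3 was counted on a dim probe that gave -0.17 at rest and -0.02 after restimulation. Another Grk3 probe, above background on 2 arrays, was higher with SH-2251 by at least 1.92 at rest and 1.18 after restimulation.
In the restimulated cells none of 18 genes was lower and 1 was higher, Plpp1, a phosphatase related to Plpp3 (1.20, with at least 0.70 on a second probe, which was above background on 3 arrays). The medians were -0.04 in the resting and 0.08 in the restimulated cells. With normexp, a model-based background correction, no gene of the list was 2-fold lower at rest and none was higher after restimulation, while at rest 2 were higher, or 0 when spots of uneven background were left out. Sgpl1, the lyase that destroys the lipid, was higher with SH-2251 by 0.37 in the resting and 0.72 in the restimulated cells. The G protein genes Gnai2 and Gna13, which carry the signal of these receptors, lay between -0.29 and 0.32.

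Among 17 measured genes of 18 known as FOXO1 or KLF2 targets, none was at least 2-fold lower with SH-2251 in either state and 1 was higher. This was Bcl2l11, which encodes the death-promoting protein BIM, at 1.03 in the resting and 0.72 in the restimulated cells on its brighter probe and 0.23 and 0.39 on the other. The medians were 0.38 and 0.20, against -0.06 over all genes, with 12 of 17 genes above 0 in each state. Among all genes 45.1% lay at or above -0.02 at rest and 42.5% at or above -0.00 after restimulation. Some of the 12 lay within the technical SD of 0.204, such as Sesn1 at 0.00 at rest. The second probe of Cdkn1b, which was counted above 0, gave -0.01 and -0.06. With normexp, with or without the uneven spots, no gene of this list was 2-fold higher at rest, and with all spots the resting median was 0.10. Ccr7, the chemokine receptor for lymph node entry, differed with SH-2251 by -0.49 at rest and 0.20 after restimulation, and Il7r, the receptor chain for the survival cytokine IL-7, by 0.05 and -0.03.
Restimulation of the control cells left 4 of these 17 genes at least 2-fold lower and 3 higher, against 7.34% and 7.20% of all genes. In the SH-2251-treated cells 3 were lower and 3 higher, against 6.98% and 7.09%. Cdkn1b, at -0.46 and -0.73 on its brightest probe, gave -1.27 and -1.32 on the second. Pik3ip1, an inhibitor of PI3K, was lower by -2.21 in the control and -1.76 in the SH-2251-treated cells, and Txnip, a FOXO target that restrains glucose uptake, by -1.82 and -1.90. Ccng2 gave -1.02 and -1.14, and Ccr7 gave -1.33 and -0.63. Btg1, an antiproliferative gene, was higher by 2.06 and 2.37, Gadd45a by 2.54 and 2.00 and Bcl6 by 2.80 and 2.02.

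Of 22 other genes tied to quiescence, 20 had a probe and 19 could be compared. In the resting cells 1 was at least 2-fold lower with SH-2251 and 1 was higher, and in the restimulated cells 2 were lower and none was higher. Foxj1, a forkhead gene that restrains T cell activation, was 4.45-fold lower in the resting cells (-2.15, technical SD 0.348) and lower by a factor of at least 2.27 after restimulation, where the SH-2251-treated array was not well above background. Tob2, an antiproliferative gene, was 2.61-fold higher in the resting cells (1.39, with 1.54 on a second probe) and 1.65-fold higher in the restimulated cells (0.72, with 0.77 on the second). Zfp36l2, an RNA-binding protein that shortens the life of transcripts, was -0.53 in the resting and -1.01 in the restimulated cells. The medians were 0.06 and 0.14. Under either normexp correction none of the list was 2-fold lower after restimulation, and with all spots none was lower at rest.

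Of 14 further KLF genes, 11 could be compared in each state, and Klf4 alone passed 2-fold on the higher side with SH-2251, both at rest (1.18) and after restimulation (1.02, technical SD 0.204). Klf4, which restrains T cell proliferation, had log2 signals of -0.19 in the resting control, 1.00 in the resting SH-2251-treated, 1.73 in the restimulated control and 2.75 in the restimulated SH-2251-treated cells. None of the 11 was 2-fold lower, and after restimulation none was 2-fold higher under either normexp correction. On restimulation Klf5 was higher by 3.20 in each treatment.
All 20 genes on a list drawn up for PI3K, AKT and mTOR signalling were measured, and none passed 2-fold with SH-2251 in either state. Not all of them act upstream of FOXO, since the list also holds Pdk1, Rptor and Rheb. The medians were 0.03 and -0.04. Of the forkhead relatives, Foxp2 and Foxo6 did not reach a signal well above background under any condition. Foxp3 and the brighter probe of Foxp4 were above background on 3 arrays each and did not pass 2-fold with SH-2251.

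**Figure D4:**
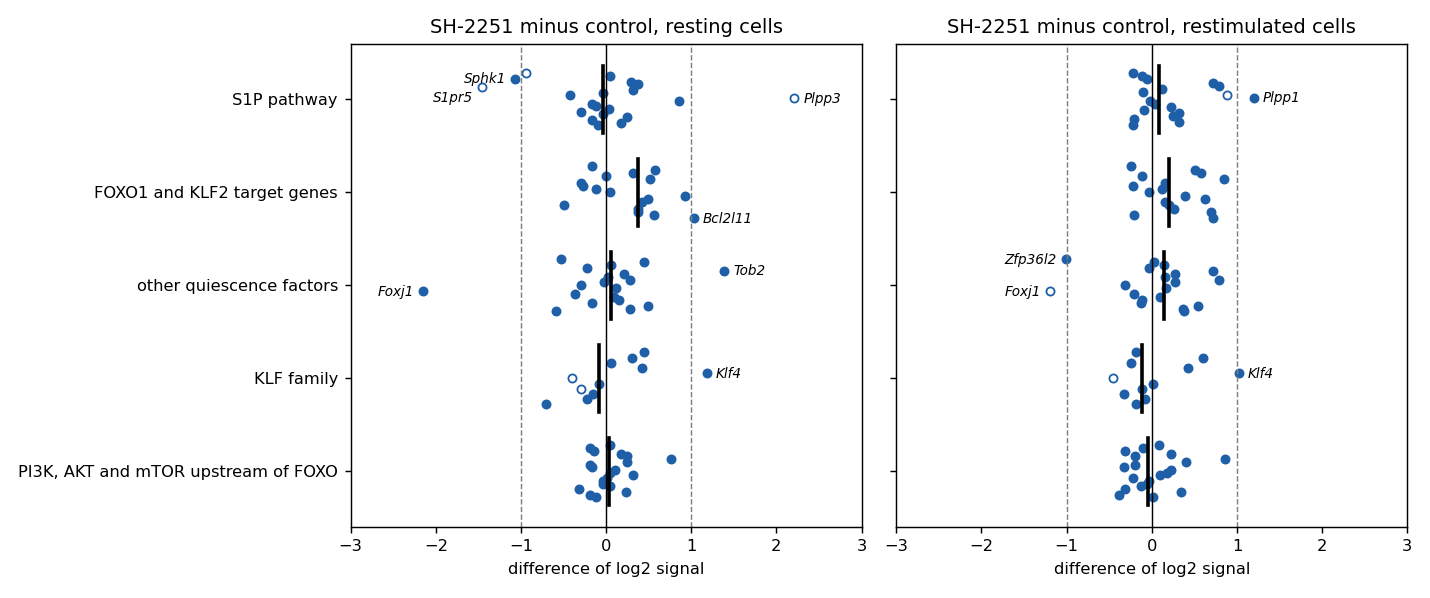
Difference of log2 signal, SH-2251-treated minus control (x axis), in resting (left) and restimulated cells (right) for the genes of 5 lists (y axis), 1 point per gene on its brightest probe, with open points for bounds, black bars for list medians, dashed lines at 2-fold and names for genes past it. Most points lie within 2-fold, the FOXO1 and KLF2 target genes have medians of 0.38 and 0.20, and no gene of the PI3K list passes 2-fold.

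By the root mean square difference between 4 centred log2 values, over 11517 other genes measured on all 4 arrays, the patterns most like that of S1pr1 were those of Eya2 (0.203), Aqp11 (0.268) and Dhx58 (0.282). Eya2 gave 0.01 in the resting control, -1.05 in the resting SH-2251-treated, -1.03 in the restimulated control and -2.85 in the restimulated SH-2251-treated cells. For S1pr4 they were Lmntd2 (0.0187), Gys1 (0.0255) and Haus4 (0.0289), and for Cd69 they were Bcl2l1 (0.0259), Ier5 (0.0286) and Slc25a33 (0.0565). The dimmer Klf2 probe was most like Reep1 (0.0404), Celf5 (0.0648) and Osbpl5 (0.109). The brighter Foxo1 probe was most like Tnfrsf9 (0.0273), Slc6a6 (0.0328) and B3gnt2 (0.0349), and the other Foxo1 probe most like Peli1 (0.014), Amd1 (0.0218) and Abl2 (0.0259). The brighter Foxp1 probe was most like Cpne2 (0.04), Tcaf2 (0.0547) and S100a1 (0.0626). The nearest match of S1pr1, at 0.203, was thus farther away than any match named for the other genes. With 4 values per gene these are descriptions only.

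Several of the 9 genes are also expressed in other lymphocytes, so markers of other cell types were summed on the linear scale, in units of the 75th percentile of the array. A linear sum mostly follows its brightest markers and is not an amount of cells. The B cell list (8 of 9 markers above background on every array, Pax5 on none) summed to 43.5 in the resting control, 38.1 in the resting SH-2251-treated, 35.8 in the restimulated control and 49.1 in the restimulated SH-2251-treated cells. The brightest B cell markers were H2-Ab1 and Cd74, at log2 4.82 and 2.92 in the resting control. In the restimulated cells Ms4a1 was 1.21 and Cd74 1.19 higher with SH-2251. The CD8 T and NK cell list (6 of 7 with a probe, Ncr1 and Klrb1c above background on no array) summed to 1.99 and 2.11 at rest and to 4.64 and 4.18 after restimulation, control first. In it Cd8a was 1.45 higher with SH-2251 at rest and 0.97 after restimulation, and Nkg7 gave -0.07 and -0.26. Nkg7 was by far the brightest marker of this list, at log2 0.75 in the resting control, where Klrd1 came next at -2.40. The rise of this sum on restimulation mostly follows Nkg7 (1.36 in the control and 1.17 in the SH-2251-treated cells). The regulatory T cell list, all 4 of whose markers had a probe, summed to between 0.489 and 0.586. In it Ikzf2 was 2.39-fold higher with SH-2251 at rest and at least 2.64-fold higher after restimulation on 1 of 4 probes. The other Ikzf2 probes were above background on no array. Foxp3 differed by 0.10 at rest. After restimulation it was 1.63-fold higher against an undetected control signal (0.71, technical SD 0.454). The remaining markers of the list, at rest and after restimulation, gave -0.26 and 0.03 (Ikzf4) and -0.44 and -0.39 (Nrp1). The myeloid list (Lyz2, Itgam, Itgax, S100a8 and S100a9 above background on no array, of 8) summed to between 2.46 and 3.01. Its sum was mostly Adgre1, at log2 1.30 in the resting control, where Cd14 came next at -3.66. The second Adgre1 probe was above background on no array. The red cell list (3 of 4 with a probe) summed to 0.365 and 0.232 in the control and 0.712 and 0.639 in the SH-2251-treated cells, with Hba-a1 2.22-fold and 2.43-fold higher and Alas2 at least 2.98-fold higher after restimulation. The part of such cells in the differences of the 9 genes was not tested.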

How the data were processed

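The 9 genes and the lists were chosen with earlier results of these data known. For every array the authors deposited the output of Feature Extraction 10.7.3.1 (Agilent Feature Extraction 10.7 in the submitters' processing notes), whose processed intensity values were already background-corrected. A table of log2 values, also deposited, had column medians of -3.72, -3.78, -3.70 and -3.74 and matched the values computed here to within 0.01 and a constant per array for 99.6% to 99.7% of probes.

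Control spots and outlier spots (77 to 106 per array) were left out, spots of a probe were averaged, and the 75th percentile (499.4 to 614.5 intensity units) was subtracted on the log2 scale. Probes were named through RefSeq accessions (GRCm38.p6, used for names), which matched 27198 of 41174 probes (66.1%). The brightest probe represented a gene, and all probes of the 9 genes were read. A probe above background on 1 array of a pair gave a bound from the dimmest signal well above background. Where the undetected signal on the other array was higher than that, it was used instead. From the lists, genes at least 2-fold different with SH-2251 were named, and for each of the 9 genes spanning at least 1 on the log2 scale the 3 genes nearest in pattern. Some genes of the lists are not reported here by name. With 1 array per condition no test was run, which limits precision, and an additive fit over both states was not run since it would take a difference between states as error. Alternative scalings, background corrections, filters, probes and fold limits were run, and the procedure was tested on simulated data. Python 3.11.15, numpy 2.4.6, pandas 2.3.3, matplotlib 3.10.9, R 4.3.3 and limma 3.58.1 were used.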

Additional observations from a re-analysis of the deposited data

Results flagged for a closer look

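Bcl6, a transcriptional repressor on the list of FOXO1 and KLF2 target genes, differed with SH-2251 by 0.56 at rest (technical SD 0.217). After restimulation Bcl6 gave -0.21, opposite in sign but about the size of its technical SD of 0.204. Bach2, a repressor on the list of quiescence factors, gave -0.59 at rest and 0.38 after restimulation with SH-2251. On restimulation Bach2 changed by -0.25 in the control cells and by 0.72 in the SH-2251-treated cells. Other listed genes also changed sign between the states, such as Klf9 (0.44 and -0.18) and Ccr7 (-0.49 and 0.20). With 1 array per condition, whether these differences differ between states or treatments was not tested.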

How the results depend on the processing

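No paired analysis by replicate was possible because the conditions share only 1 replicate number, and a fit pairing the treatments by state was not run. No difference of at least 2-fold among the 9 genes changed sign on the brightest probe under any alternative run. Of 40 differences (8 genes, difference of differences included), 16 moved by more than the technical SD under normexp, 9 with the dimmest probe, 6 with the mean of all probes, 4 under normexp without uneven spots and 1 under quantile normalization. In the restimulated cells S1pr1 stayed between -1.80 and -1.67 with SH-2251, and Foxp1 between 0.74 and 1.06, so that 0 genes were 2-fold higher under quantile normalization, normexp (with or without spots of uneven background), the mean of all probes, the dimmest probe and a 3-fold limit. In the resting cells 1 gene (Foxp1) was higher under median scaling, the 75th percentile over detected probes and a 1.5-fold limit, and 1 (S1pr1) was lower at 1.5-fold. On restimulation of control cells 2 were higher under the mean of all probes, the dimmest probe and 1.5-fold, and 0 were lower at 3-fold, while the median over the genes was -0.35 without a filter, -0.40 with the mean of all probes and -0.28 with the dimmest probe. In SH-2251-treated cells 1 was lower under normexp (S1pr4 gave -0.98) and at 3-fold, and 1 higher at 3-fold. The S1pr1 difference of differences ran from -1.18 to -0.88 and fell short of 2-fold under normexp. The Klf2 difference on restimulation of control cells ran from -2.31 to 0.26 with the choice of probe. The cause was not tested. Over all genes in resting cells, 368 lower and 282 higher became 162 and 702 under normexp, 185 and 123 under normexp without uneven spots, and 798 and 623 without a filter. In restimulated cells 351 and 334 became 158 and 149 under either normexp and 950 and 678 without a filter. On restimulation, the 937 lower genes of control cells became 444 under either normexp, and the 881 of SH-2251-treated cells became 1520, 442 without uneven spots and 1421 without a filter. On the resting SH-2251 array 4 spots lay far below their local background, and the fitted mean background there was -151.7, or 7.416 without 12 uneven spots. Normexp without uneven spots and the dimmest probe were chosen after seeing the data, and normexp used median spot signals. Klf3 and Foxo3 were too dim for small differences.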
